A study of Drosophila melanogaster with 8 samples.

Results

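The subject is a set of 354 autosomal stretches of open chromatin that overlapped annotated exons away from start sites and were called in all 4 pools of neurons. They were chosen by the peak calls themselves and by the gene annotation. Peaks of the 4 lists were joined wherever they overlapped by at least 1 bp, and a joined region was kept if it lay on an autosome, held peaks of all 4 lists, came no closer than 50 bp to an annotated transcription start site, and overlapped a 5' UTR, coding or 3' UTR base. The 354 regions were a small part of 6926 autosomal regions present in all 4 lists, which in turn came from 14709 joined regions on the autosomes and X. Presence in all lists was therefore fixed by the choice and is not a result. The remaining shared autosomal regions comprised 4105 at promoters, 1437 in introns, 963 between genes and 67 on exons of non-coding genes.

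Open chromatin was mapped by ATAC-seq, where a transposase inserts adapters into DNA that is not wrapped by nucleosomes. The 4 groups were central brain neurons sorted as male fru+, as female fru+, as male fru- and as female fru-, with 2 replicates each (8 samples in all) and 1 peak list per group. All flies were 2 to 7 day old adults of strain w1118 that carried UAS-mCD8-GFP over MB247-Gal80 and Fru-GAL4 over TM2 or TM6B, so every group shared 1 genotype and the groups differed in sex and in GFP. Cells with GFP, driven from the fruitless (fru) locus, were sorted as fru+, and cells without it as fru-. MB247-Gal80 silences the reporter in mushroom body Kenyon cells, so Kenyon cells that transcribe fru belonged to the fru- pools. The FruM protein is made in males, so of the 4 groups it is expected in the male fru+ cells and in the masked Kenyon cells of the male fru- pool.

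Open chromatin in animals is concentrated at promoters and at enhancers in introns and between genes. Exons are usually less open, since transcribed coding sequence tends to be occupied by nucleosomes. Enhancers that overlap coding sequence are known from several genes, and open chromatin also occurs at gene ends, where nucleosomes are depleted around the site of polyadenylation. A peak that touches an exon may have its summit, the position of highest signal, in the exon or in the sequence beside it.

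There were 11307 and 11224 peaks in the male and female fru+ lists, and 11218 and 11607 peaks in the male and female fru- lists. The free-text descriptions of the female fru+ and male fru- samples name each other's group, whereas titles and file names agree. The X chromosome carried 20.3% of peaks in the female fru+ list (95% Wilson interval 19.5 to 21.0) and 20.1% in female fru- (19.4 to 20.9), against 15.0% in male fru+ (14.4 to 15.7) and 14.9% in male fru- (14.3 to 15.6), so the sexes sat as the titles say. A peak lay within 50 bp of the outermost 5' end of 6 of 6 neuronal marker genes in every list. The same held for 4 of 4 Kenyon cell markers, while 5 of 7 glial markers (repo, alrm, wrapper, Gs2 and moody) had no such peak in any list. Eaat1 had one in female fru- and loco in 3 lists, all but male fru+. A group had 1 list, so no error between replicates is known and groups were not tested against each other. Every difference below is between lists, and the intervals on shares and medians cover counting error only.

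The sequences under strong regions show where the signal sits. Strength was the percentile rank of a region by its -log10 q-value within a list, and the lowest of its 4 ranks was used. For each exon class the 3 strongest regions on 2L, 3L, 3R and chromosome 4 are shown as 30 bases of the dm6 plus strand around the male fru+ summit, with exonic bases in capitals and introns or intergenic bases in lower case. Stronger regions on the remaining arm, among them those of bin3, Dscam1 and otp, are described below by position only.
Teh1 (5' UTR, chr3R:9865993-9866022): TCCGCCTACCGCAACATGCAGAGCGCGGTT
spen (5' UTR, chr2L:161731-161760): AAGCGCACCACATGACCACATAGCCATTTA
milt (5' UTR, chr2L:7038405-7038434): gtgagaagtgcgcgcctgtgtgtgttttat
scrib (coding, chr3R:26566982-26567011): AACAGCAGCCACACCCAGTGCAGCAACCAA
Hmx (coding, chr3R:17566933-17566962): cggcacaccgccacccacagcgactgacaa
gukh (coding, chr3R:19017737-19017766): CGCTAAACGAGCTGCCACAGCACTTGCGTC
tio (3' UTR, chr2L:22024585-22024614): ATTCAATTACCACCACTTTGACGAACGGCT
Sytalpha (3' UTR, chr2L:17603350-17603379): AAGGATGTGTGTGTACTCGGTTGCAGGCGA
CG18747 (3' UTR, chr3R:7779946-7779975): aaaacggctcttatgcactaacagcacttt
In 6 of these 9 windows all 30 bases were exonic. In milt, Hmx and CG18747 none was, although the region as a whole reached an exon. These counts cover the windows shown and not the strongest regions of all arms.

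Coding sequence was the most frequent exon class, and 3' UTRs were the most densely covered by these regions. Each region was assigned to the class that held most of its exonic bases. The coding class held 197 regions (55.6%, Wilson 50.4 to 60.7), the 3' UTR class 121 (34.2%, 29.4 to 39.3) and the 5' UTR class 36 (10.2%, 7.44 to 13.8). Where any 5' UTR base, then any 3' UTR base, decided the class instead, the 3' UTR class was the largest (44.4%, against 37.6% coding and 18.1% 5' UTR). Coding sequence makes up 71.2% of annotated autosomal exonic bases more than 50 bp from a start site, but held 46.5% of the exonic bases of these regions. The 3' UTRs make up 19.3% of those annotated bases and held 42.4% of the exonic bases covered. Per Mb of annotated sequence this was 12302 bp for 3' UTRs, 6562 bp for 5' UTRs and 3648 bp for coding sequence. Regions that came within 50 bp of a start site were left out whole, but their exonic bases farther away stayed in the annotated total. This lowers the figures for exons near start sites, so the order of the classes depends in part on the choice of regions. Each class also touched others, and 103 regions overlapped more than 1 class, most often coding sequence with a 3' UTR (67) or with a 5' UTR (34).

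Most regions combined exonic with other sequence. The exonic share of a region had a median of 48.6% with quartiles of 20.4% and 98.1%, and 88 regions lay wholly inside exons whereas 39 were under 10% exonic. The median share was 70.1% in the 3' UTR class, 49.1% in the 5' UTR class and 37.6% in the coding class. In the male fru+ list the summit lay in an exon of a protein-coding gene in 171 of 354 regions, in an intron in 127 and between genes in 54. In the coding class 80 of 197 summits fell on coding bases and 101 in introns (51.3%, Wilson 44.3 to 58.2). Those 101 intronic summits lay a median of 246 bp from the nearest coding base, and 20 of them were within 100 bp. The other lists gave nearly the same counts, for instance 123 intronic summits in the male fru- list and 126 in the female fru- list. The summit was exonic in all 4 lists in 156 regions, in none in 155 and in some lists in 43.

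**Figure D1:**
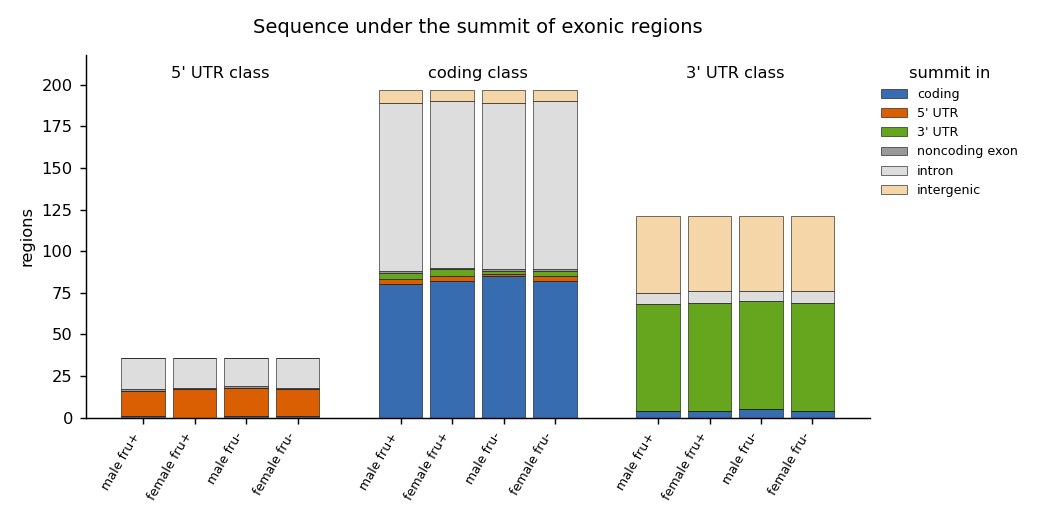
Number of exonic regions (vertical axis) by the sequence under the summit, for each exon class and each of the 4 lists. In every list the coding class was split between coding (80 of 197 in male fru+) and intronic summits (101 of 197), and the 3' UTR class between 3' UTR (64 of 121) and intergenic summits (46 of 121).

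The summits of the 3' UTR class were placed relative to gene ends, to which the choice of the class already ties them. In the male fru+ list 64 of 121 summits lay in a 3' UTR and 46 between genes, and none lay in a 5' UTR. Relative to the nearest annotated 3' end of a transcript of the host gene, the summit lay past the end in 67 regions and at or before it in 54, with a median of 66 bp past it. It was within 250 bp of that end in 53 regions and within 500 bp in 81. The 46 intergenic summits lay a median of 187.5 bp past the end. The next gene beyond the host's 3' end was convergent, that is, read towards the host, for 63 of the 121 regions (52.1%) and for 22 of the 46 with an intergenic summit (47.8%). Over all autosomal protein-coding genes with a next gene the share was 42.2%. The choice favours convergent neighbours, since a close tandem gene has its start site near the host's 3' end. Regions within 50 bp of a start site were left out, but the 42.2% includes all such genes. It also counts genes, whereas the 121 regions had 118 hosts. Orientation was not tested.

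**Figure D2:**
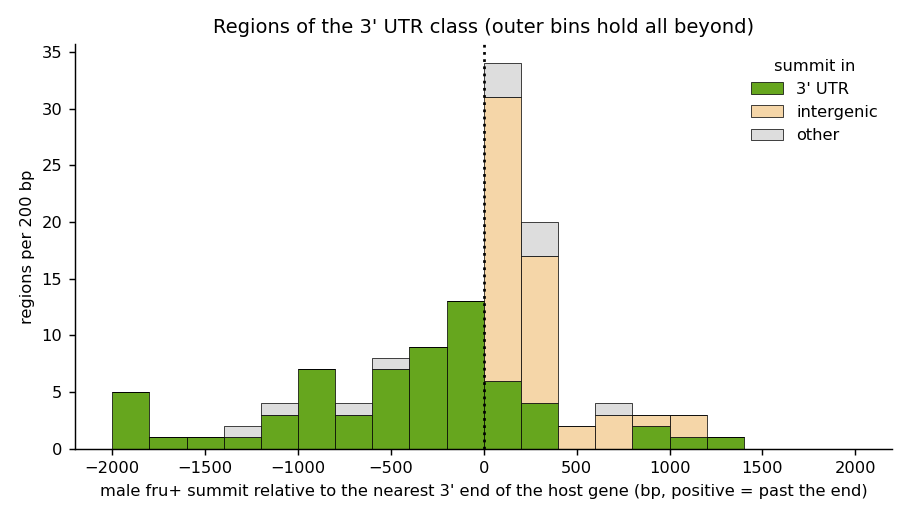
Distance in bp from the nearest annotated 3' end of the host gene to the male fru+ summit (horizontal axis, positive past the end) for the 121 regions of the 3' UTR class, in bins of 200 bp coloured by the sequence under the summit. Of the 121 summits, 81 lay within 500 bp of the dotted line.

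Distances from start sites follow in part from the class, since 5' UTRs begin at them. The median distance of all 354 regions from a start site was 2635.5 bp, and 87 were within 1000 bp. It was 3774 bp in the coding class, 2083 bp in the 3' UTR class and 772 bp in the 5' UTR class. The limit of 50 bp itself decided few regions. Just outside it, and therefore kept, were regions in CG14137 at 63 bp, CG42748 at 78 bp and mael at 82 bp, with widths in male fru+ of 840 bp, 321 bp and 514 bp. Just inside it, and therefore left out, were regions at M7BP at 48 bp, Tsp33B at 41 bp and Cipc at 38 bp, with widths of 358 bp, 368 bp and 285 bp. Of the exonic regions left out, 3902 contained a start site and 10 lay 1 to 50 bp from one.

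Chromosome 4, the small and largely heterochromatic autosome of the fly, held more of these regions for its size than the large arms. It carried 16 of them, which was 15.1% of its 106 shared regions (Wilson 9.51 to 23.1), against 338 of 6820 on the 4 large arms (4.96%, 4.47 to 5.50). By length this was 11.9 per Mb on chromosome 4 and 3.10 per Mb on the large arms. Annotated exonic sequence away from start sites made up 29.7% of chromosome 4 and 23.9% of the large arms. The median exonic share of a region was 89.8% on chromosome 4 and 48.1% on the large arms. Their hosts on chromosome 4 included pan, the transcription factor of Wnt signalling, lgs, its coactivator, toy, a Pax6 homologue, unc-13 and Cadps, both needed for vesicle release, and ATPsynbeta, a subunit of the mitochondrial ATP synthase. The 16 regions were of modest strength, with a median of 29.9, and with median widths of 908.5 bp in male fru+, 575 bp in female fru+, 810.5 bp in male fru- and 610 bp in female fru-. They were thus wider in both male lists than in both female lists. On the large arms the medians were 584.5 bp and 542.5 bp in the male and female fru+ lists, and 594 bp and 535 bp in the male and female fru- lists. The large arms held 98 regions on 3R, 86 on 2R, 84 on 2L and 70 on 3L, which was 4.25% to 5.49% of the shared regions of each arm.

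The strongest coding regions were higher than the median promoter and of nearly equal height in all pools. This follows in part from the ranking, since the lowest of 4 ranks favours regions that are strong in every list. In bin3, which encodes a methyltransferase that caps small RNA, the region at chr2R:6235255-6236329 ranked at the 99.8th percentile or higher in every list. Its width was 1050 bp in male fru+, 1035 bp in female fru+, 1065 bp in male fru- and 1069 bp in female fru-, and its fold enrichment over local background was between 8.44 and 8.98 in all lists. The bin3 summit was on coding sequence in all 4 lists and 75% of the region was exonic. A region at chr2R:7352177-7352990 in Dscam1, an immunoglobulin receptor of neurite self-avoidance, had fold enrichments of 12.4 to 13.9, but was 11% exonic and had its summit in an intron in all lists. In otp, a homeobox gene, the region at chr2R:20884366-20885202 had a coding summit and fold enrichments of 14.0 to 14.4. Its width was 557 bp in male fru+, 501 bp in female fru+, 809 bp in male fru- and 533 bp in female fru-, so the male fru- peak was the widest while the heights barely differed. The region in scrib, a scaffold of cell polarity, was 1637 bp and 1370 bp wide in male fru+ and male fru-, and 1163 bp and 1094 bp wide in female fru+ and female fru-, broader in both male lists. CG8888 completed this group, at 10.3 to 11.5-fold.

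The strongest 3' UTR regions included tio, a zinc finger gene related to teashirt, and Sytalpha, a synaptotagmin. The tio region at chr2L:22024312-22024840 lay wholly in the 3' UTR. It was 514 to 529 bp wide in all lists, with fold enrichments of 11.0 and 11.4 in the male and female fru+ lists, and 12.2 and 12.3 in the male and female fru- lists. Both measures varied little over the lists. The Sytalpha region at chr2L:17603219-17603742 was wholly exonic, with 454 bp of 3' UTR and 70 bp of coding sequence, and had widths of 372 bp and 371 bp in the male and female fru+ lists, and 523 bp and 377 bp in the male and female fru- lists. It was widest in male fru-, while its fold enrichment stayed between 12.1 and 13.1. The other 3 of the strongest 5, CG12769, CG18747 and CG14160, were 14%, 11% and 9% exonic and had no summit in an exon in any list.

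Among 5' UTR regions the strongest was in Teh1, which encodes an auxiliary subunit of the voltage-gated sodium channel. Its region at chr3R:9865470-9866954 covered 1375 bp in male fru+, 1402 bp in female fru+, 1304 bp in male fru- and 1246 bp in female fru-, with fold enrichments of 5.69 to 5.97. The region in spen, a nuclear RNA-binding protein of the SPEN family, lay wholly in the 5' UTR and was 1731 to 1736 bp wide in all lists. The region in ths, an FGF ligand, was also wholly 5' UTR, at 677 to 713 bp. Those of stw, a laccase, and milt, an adaptor that links mitochondria to kinesin, had intronic summits and were 15% and 40% exonic. The stw region had the highest fold enrichment of these 5, at 14.4-fold or more in every list.

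The widest regions were those of trx, a histone methyltransferase, grp, a checkpoint kinase, Octbeta3R, an octopamine receptor, IA-2, a dense-core vesicle protein, and gukh, a partner of scrib. The trx region measured 2062 bp in male fru+, 2106 bp in female fru+, 2107 bp in male fru- and 2155 bp in female fru-. The IA-2 region measured 1850 to 1917 bp over the lists, and 7% of it was exonic. The gukh region was wholly exonic and covered 1560 bp in 2 peaks in male fru+ and 1893 to 2009 bp in 1 peak in each other list. The region of Octbeta3R also overlapped the heat shock gene Hsp70Bc, which has near-identical copies. At the other end, the narrowest were in l(3)mbn at 178 to 215 bp, pdm3, a POU factor, at 191 to 223 bp, and CG12768 at 191 to 249 bp.

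The 354 regions were spread over 323 host genes, the gene with most exonic bases in the region being taken as host. Exons of a single gene were overlapped by 330 regions and those of 2 or more by 24. The hosts were 2.75% of 11749 autosomal protein-coding genes. They were long, with a median length of 18188 bp against 2042.5 bp for other autosomal protein-coding genes, and 149 of 815 genes of at least 20000 bp were hosts (18.3%) against 174 of 10934 shorter genes (1.59%). The outermost 5' end had a promoter region present in all 4 lists in 212 of 323 hosts (65.6%) and in 4587 of 11426 other genes (40.1%). Length and an open 5' end were not separated here.

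A total of 21 genes hosted 2 or more regions and 8 hosted 3 or more. The gene side-II, a member of the Sidestep family of immunoglobulin proteins, held 5, all of the coding class. They were weak, with strengths of 0.276 to 29.5. Their widths ran from 305 to 632 bp in male fru+, from 324 to 626 bp in female fru+, from 268 to 437 bp in male fru- and from 313 to 418 bp in female fru-. The summit was coding in every list in 2 of the 5 and intronic in every list in another 2. The gene CG1888 held 3 regions of the 3' UTR class, the middle one wholly exonic at 876 bp and 959 bp in the male and female fru+ lists, and 963 bp and 780 bp in the male and female fru- lists. The gene ths held a second, weaker 5' UTR region of 340 to 378 bp and a coding region of 378 to 786 bp. CG42748 combined 1 5' UTR region with 2 coding ones, the stronger of which covered 966 to 1011 bp. The genes B4, pan, CG34357 and CG45263 also had 3 each. Hcf, a transcriptional coregulator, and Srrm234, a splicing factor gene, had 2 each and completed the 10 genes with most regions.

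Host genes were counted in 6 gene lists, beside the 2.75% of all autosomal protein-coding genes. Ion channel and receptor genes held the most hosts, 13 of 52 (25.0%, Wilson 15.2 to 38.2), among them the dopamine receptors Dop1R1 and Dop1R2, the serotonin receptors 5-HT1B, 5-HT2A and 5-HT2B, the octopamine receptors Octbeta2R and Octbeta3R, and the potassium channel gene SLO2. RNA-binding protein genes followed with 8 of 36 (22.2%, 11.7 to 38.1), then synaptic and transmitter genes with 5 of 36 (13.9%, 6.08 to 28.7), adhesion and guidance genes with 10 of 92 (10.9%, 6.01 to 18.9) and neuronal transcription factor genes with 8 of 81 (9.88%, 5.09 to 18.3). The 78 ribosomal protein genes held 2 (2.56%, 0.706 to 8.88), RpS7 and RpS26. The median gene length was between 19263 and 36933 bp in the first 5 lists and 1286 bp for ribosomal protein genes. The share was 18.3% among all genes of at least 20000 bp and 1.59% among shorter ones. The 18.3% lay below the shares of the channel and RNA-binding lists and above those of the synaptic, adhesion and transcription factor lists. The intervals of these 5 lists all reached it, so their order around it is uncertain. The lists were not limited to genes of that length, so 18.3% is not a matched reference.

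Synaptic hosts showed how the classes mixed within 1 function. In brp, the scaffold of the active zone, the region was of the coding class with widths of 1369 bp in male fru+, 1466 bp in female fru+, 1444 bp in male fru- and 1439 bp in female fru-. In Rim, a partner of brp at the active zone, a region of the coding class covered 1089 to 1123 bp over the lists. Both had intronic summits and were nearly equal in the 4 lists. The unc-13 region, in a 3' UTR, was 1478 bp in male fru+, 1191 bp in female fru+, 1211 bp in male fru- and 846 bp in female fru-, and thus narrowest in female fru-. Rab3, a vesicle GTPase, had a weak 3' UTR region of 196 to 311 bp. Of the lists' other genes with 2 regions, stan, a cadherin of planar polarity, had both in the 3' UTR class, 1 of them with a coding summit in every list. The gene pum, a translational repressor, had 1 wholly in its 3' UTR and 1 of the coding class with an intronic summit. The stronger pum region had fold enrichments of 7.80 and 6.97 in the male and female fru+ lists and of 7.95 and 8.23 in the male and female fru- lists.

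Compared with other shared regions, the exonic ones were narrower and lower than promoters, and their median width was slightly above that of intronic and intergenic ones in every list. The choice favours this edge, since a single exonic base sufficed and a wide region is more likely to touch an exon. Where an exonic summit was required in all 4 lists, the median width in both fru- lists lay below the intronic one. The widths given next are those of all 354 exonic regions. The median width was 592 bp in male fru+ (95% interval of the median 548 to 652), 548.5 bp in female fru+ (503 to 581), 611 bp in male fru- (555 to 657) and 535 bp in female fru- (509 to 600). Over the lists promoters measured 799 to 845 bp, intronic regions 496 to 545 bp and intergenic regions 494 to 538 bp. The exonic median was larger in male than in female lists, within fru+ and within fru-. The intervals overlapped in both cases, but they ignore that the same regions were measured in each list. Region by region, the median ratio of male over female width was 1.04 in fru+ and 1.04 in fru-. Promoter, intronic and intergenic medians were also larger in the male lists. Over the lists, median fold enrichment was 4.06 to 4.25 in exonic regions and 6.54 to 7.06 in promoters. Median strength was 37.1 in exonic regions, 69.5 in promoters, 33.3 in introns and 36.5 between genes. By class, the median width in male fru+ was 693.5 bp for 5' UTR, 584 bp for coding and 584 bp for 3' UTR regions.

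**Figure D3:**
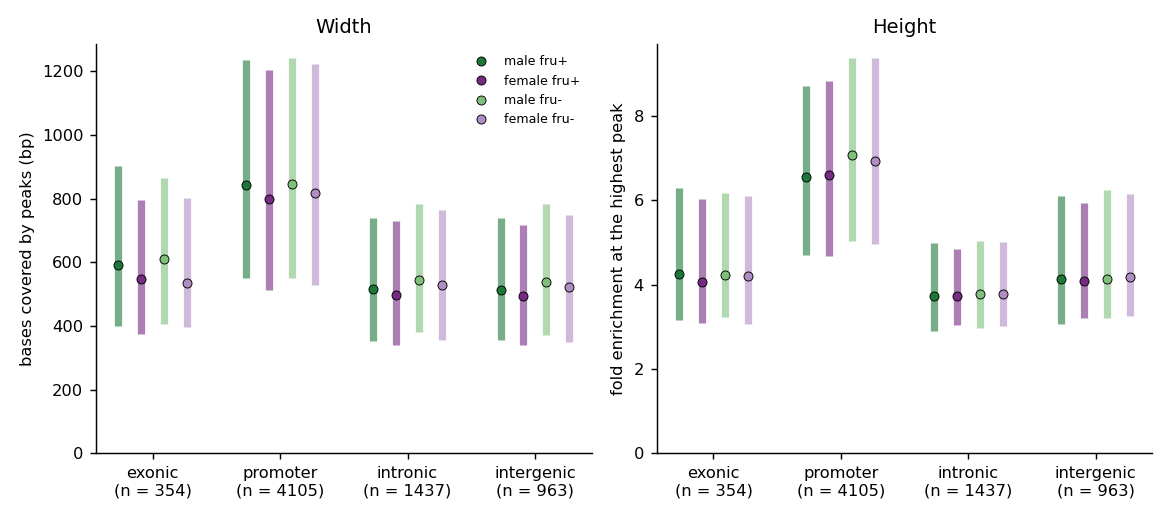
Width in bp (left) and fold enrichment (right) of exonic, promoter, intronic and intergenic shared autosomal regions in each list, with points for medians and bars for quartiles. Exonic medians (535 to 611 bp) lay below those of promoters (799 to 845 bp) in every list.

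Widths were then compared between lists, region by region, in 4 pairs. A region counted as unequal when its covered width differed by at least 1.5-fold. Male fru+ over male fru- asks about fru status in males, where FruM is present in the fru+ cells. The median ratio was 1.00, with 32 regions wider in male fru+ (9.04%, Wilson 6.48 to 12.5) and 39 narrower (11.0%, 8.16 to 14.7), against 4.65% and 7.31% of all shared autosomal regions. In intronic regions the shares were 8.42% and 14.9%, so the exonic shares lay above those of all regions, most of which are promoters, and near or below those of introns. At 2-fold the order turned, with 4.24% wider and 3.39% narrower. That turn rests on few regions, and no 2-fold share of all shared regions is given beside it. Female fru+ over female fru-, where both lack FruM, had 23 wider (6.50%) and 35 narrower (9.89%), against 3.68% and 6.22% of all regions. In intronic regions the shares for this pair were 7.72% and 10.6%, and in intergenic ones 5.82% and 11.2%.

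The comparisons of the sexes leaned to the male side. In male fru+ over female fru+, 48 exonic regions were wider (13.6%, Wilson 10.4 to 17.5) and 24 narrower (6.78%, 4.60 to 9.89), against 8.19% and 5.2% of all shared regions. In this pair the 3' UTR class had 23 wider and 7 narrower of 121, and the coding class 21 wider and 16 narrower of 197. In male fru- over female fru-, 32 exonic regions were wider (9.04%) and 14 narrower (3.95%), against 4.62% and 2.14% of all shared regions and 7.17% and 4.24% of intronic ones. At 2-fold the exonic lean turned, with 1.13% wider and 1.69% narrower. It then rested on few regions, and no 2-fold share of all shared regions is given beside it. At 1.5-fold all shared regions together also leaned to the male side in both pairs. The 4 pairs share lists, so their counts are not independent. If the peak names are right that both male lists are replicate 1 and both female lists replicate 2, sex and replicate cannot be told apart in these 2 pairs.

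Fold enrichment changed less often than width. At 1.5-fold, 18 exonic regions were higher in male fru+ than in male fru- (5.08%) and 15 lower (4.24%), against 1.69% and 2.4% of all shared regions. Intronic regions had 3.55% higher and 4.31% lower, and intergenic ones 4.26% and 4.78%. Dividing by the median ratio of all shared regions, 0.942, gave 29 exonic regions higher and 14 lower, so higher calls made up 67.4% instead of 54.5%. The division raises every ratio, in other kinds of region too. Their shares after it are not given, so the 67.4% has no background beside it. Against female fru+, 15 exonic regions were higher in male fru+ (4.24%) and 8 lower (2.26%), with backgrounds of 1.8% and 1.89%. The intronic shares were 3.83% and 4.11%. In female fru+ over female fru- the exonic counts were 2 and 3, with backgrounds of 0.505% and 0.736%, and dividing by the median ratio turned them to 3 and 2. In male fru- over female fru- they were 1 and 0 (0 of 354 allows a share of up to 0.847%), with backgrounds of 0.159% and 0.101%.

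Unequal width went with low strength. This is in part built in, since strength was the lowest of 4 ranks and a small peak in 1 list lowers it. In any of the 4 pairs 131 regions were past 1.5-fold (37.0%), against 23.4% of all shared regions, and their median strength was 19.5 against 51.4 for the other 223. By strength the share was 75 of 113 below the 25th percentile (66.4%), 39 of 109 up to the 50th (35.8%), 15 of 84 up to the 75th (17.9%) and 2 of 48 above it (4.17%). Intronic regions gave 69.2%, 36.8%, 15.9% and 6.54% over the same bins, and promoters 37.1%, 25.3%, 9.66% and 2.66%. Few of the calls thus rest on regions that were strong in every list.

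**Figure D4:**
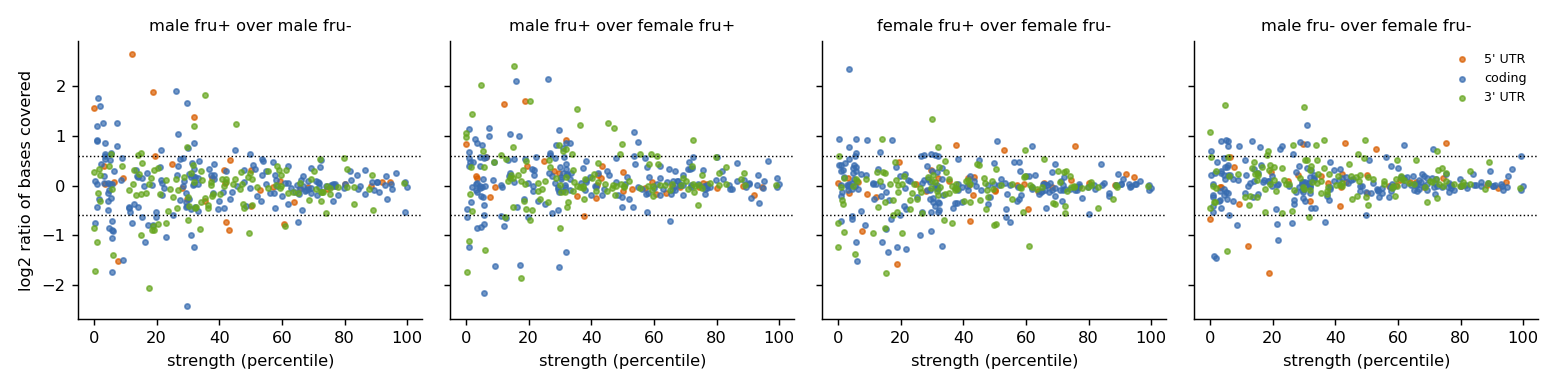
Log2 ratio of covered width (vertical axis) against strength, the lowest percentile rank over the 4 lists (horizontal axis), for 354 exonic regions in each pair of lists, coloured by exon class. Dotted lines mark 1.5-fold, and the spread narrows with strength, with 2 of 48 regions above the 75th percentile past a line in any pair.

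Regions in which 1 list stood at least 1.5-fold from each of the 3 others were counted next. Male fru+ was widest in 15 exonic regions (4.24%, against 2.05% of all shared regions) and narrowest in 13 (3.67%, against 2.9%). Most of all shared regions are promoters. In intronic regions the shares were 3.83% and 6.12%, and in intergenic ones 3.95% and 6.65%. The exonic share widest in male fru+ was thus near theirs, and the share narrowest was below theirs. For female fru+ the exonic counts were 5 and 14 (1.41% and 3.95%), against 0.563% and 2.43% of all shared regions. For male fru- they were 6 and 6 (1.69% and 1.69%), against 0.693% and 0.578%. For female fru- they were 4 and 8 (1.13% and 2.26%), against 0.534% and 1.2%. In the same order, intronic shares were 1.39% and 3.97%, 1.53% and 0.835%, and 1.18% and 2.02%. Intergenic shares were 0.623% and 3.84%, 0.935% and 1.56%, and 1.04% and 1.87%. The regions widest in male fru+ included the acetylcholine receptor gene mAChR-A, at 947 bp against 426 bp in female fru+, 398 bp in male fru- and 364 bp in female fru-, and the adenylyl cyclase gene Ac78C, at 1013 bp against 303 to 467 bp in the other lists. For Ac78C the fold enrichment was also highest in male fru+, at 8.60, against 5.31 in female fru+ and 3.42 and 3.45 in the male and female fru- lists. The regions narrowest in male fru+ included wge, at 280 bp against 660 to 735 bp in the other lists, with a fold enrichment of 3.48 against 7.01 to 7.47. These 3 were picked after their values were seen.

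The regions with the largest width ratios of male fru+ over male fru- were those of dpr12, MCU and bru1. In dpr12, an immunoglobulin gene of the Dpr family, the region at chr2R:5831775-5832930 was 1156 bp wide in male fru+, 369 bp in female fru+, 185 bp in male fru- and 430 bp in female fru-, a ratio of 6.25 for male fru+ over male fru-. It was 3% exonic, and its fold enrichment varied less, at 3.49 in the male fru+ list and 2.40 in the male fru- list. The region of MCU, the mitochondrial calcium uniporter, covered 904 bp in male fru+, 205 bp in female fru+, 241 bp in male fru- and 407 bp in female fru-. Male fru+ was the widest list in both genes. In bru1, which encodes an RNA-binding translational repressor, the widths were 694 bp and 213 bp in the male and female fru+ lists, and 188 bp and 634 bp in the male and female fru- lists, so male fru+ and female fru- were wide and the other lists narrow.

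The smallest ratios of male fru+ over male fru- were in Octbeta2R (0.19), CG17744 (0.24) and CG33143 (0.30). Octbeta2R, an octopamine receptor gene, had a region at chr3R:12556163-12557286 that covered 189 bp in male fru+, 587 bp in female fru+, 1015 bp in male fru- and 1108 bp in female fru-. Its height was less unequal, with fold enrichments of 3.38 and 3.80 in the male and female fru+ lists, and 4.03 and 4.02 in the male and female fru- lists, and the summit was intronic in all 4 lists. In CG17744 both measures were low in male fru+, at 239 bp and 2.85-fold, against 861 bp and 4.26-fold in female fru+, 995 bp and 5.84-fold in male fru-, and 1048 bp and 5.40-fold in female fru-. Both regions were narrower in each fru+ list than in the fru- list of that sex, and narrowest in male fru+. Exonic bases made up 9% of the Octbeta2R region, 2% of that of CG17744 and 17% of that of CG33143.

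Between the fru+ lists, Maf1, a repressor of RNA polymerase III, had the largest ratio (5.30), with 1398 bp and 5.48-fold in male fru+ and 264 bp and 2.88-fold in female fru+. Its 3' UTR region has 11 near-identical matches elsewhere in the genome, so reads there may not be placed with certainty. MCU (4.41) and Rbfox1 (4.30), a splicing regulator, came next. The Rbfox1 region had a coding summit and widths of 1156 bp in male fru+, 269 bp in female fru+, 1165 bp in male fru- and 681 bp in female fru-. The smallest ratios were in trv (0.23), CG17744 (0.28) and CG42342 (0.30). In females, fru+ over fru- was largest for Plc21C, a phospholipase C gene (5.04), Dap160, an endocytic scaffold (2.53), and CG30419 (1.92), and smallest for Maf1 (0.30), bru1 (0.34) and osy (0.35). In the fru- cells, male over female was largest for unc-104, a kinesin of synaptic vesicle precursors (3.07), Dap160 (2.99) and Taf3 (2.32), and smallest for bru1 (0.30), CG34393 (0.37) and side-VI (0.37). The unc-104 region, wholly 3' UTR, was 930 bp in male fru+, 229 bp in female fru+, 710 bp in male fru- and 231 bp in female fru-, wide in both male lists and narrow in both female ones. The strengths of these 18 regions ran from 0.433 to 31.1.

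**Figure D5:**
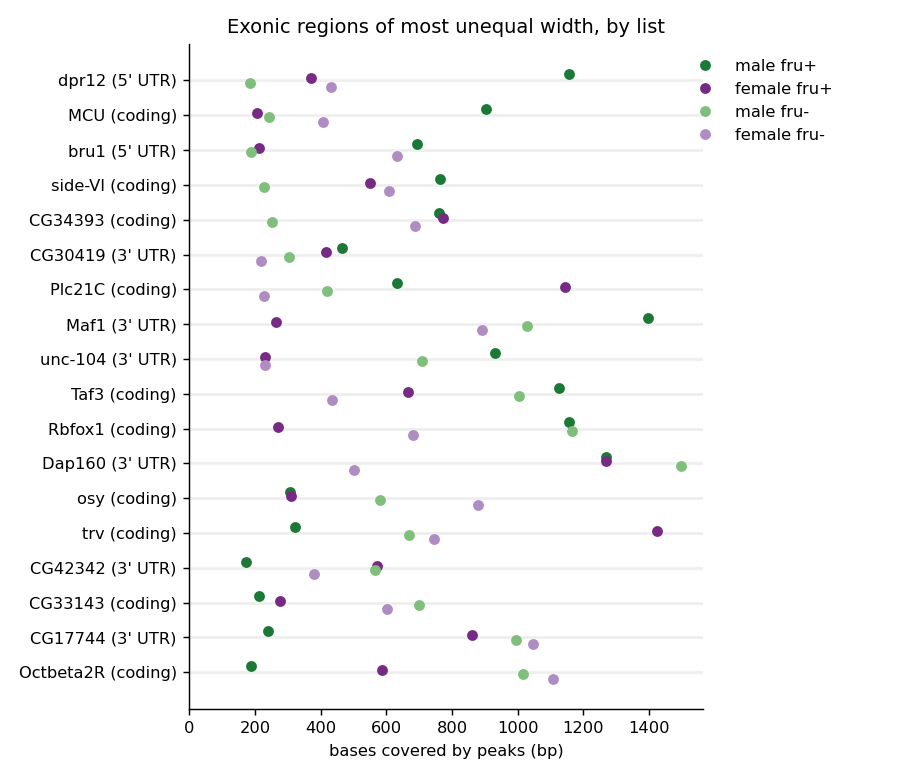
Bases covered by peaks in each list (horizontal axis, bp) for the 18 exonic regions with the 3 largest or 3 smallest width ratios in any pair, sorted by male fru+ over male fru-. dpr12 was widest in male fru+ (1156 bp) and Octbeta2R narrowest there (189 bp).

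Base composition followed the place of the summit. In windows reaching 150 bp to either side of the male fru+ summit the median GC content was 47.8% in exonic regions (interval of the median 46.8 to 49.2), 43.2% in promoters, 48.8% in introns and 48.5% between genes. It was 50.5% in the coding class (48.8 to 51.5), 47.3% in the 5' UTR class (44.2 to 51.5) and 40.9% in the 3' UTR class (38.9 to 43.9). Exonic summits had 50.8%, intronic ones 47.5% and intergenic ones 34.7% (33.2 to 37.5). Within the 3' UTR class the median was 34.7% at the 46 intergenic summits (32.9 to 38.2) and 45.0% at the 68 exonic ones (40.9 to 48.8).

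Of 6 short motifs searched on either strand in these windows, TATCGATA was by ratio the one most unequal between promoters and exonic regions. In percentage points TAATTA differed slightly more. TATCGATA, the core of the DNA replication-related element bound by DREF, occurred in 4 exonic regions (1.13%, Wilson 0.440 to 2.87), in 7.99% of promoters (7.20 to 8.86), 0.139% of introns and 0.727% of intergenic regions. The 4 hosts were brp, CG3376, PAN3 and CG42709, and none of the 4 summits was in an exon. GAGAGAGA, recognised by GAGA factor, was in 19 exonic regions (5.37%, 3.46 to 8.23), 8.14% of promoters, 11.0% of introns and 9.66% of intergenic regions. TAATTA, a homeodomain core, was in 25 (7.06%, 4.83 to 10.2), against 14.5% of promoters, 8.21% of introns and 8.10% of intergenic regions. CACGTG, an E-box, was in 27 (7.63%, 5.29 to 10.9), against 5.33%, 7.59% and 6.54%. ATGCAAAT, the octamer of POU factors, was in 17 (4.80%, 3.02 to 7.55), against 2.68%, 6.61% and 7.27%. TGACGTCA, the cyclic AMP response element, was in 2 (0.565%), against 0.804%, 1.74% and 1.56%.

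Stretches with the rarest of these motifs in exonic regions are shown to place them in the gene, as 30 bases of the dm6 plus strand with the motif in capitals. The TATCGATA matches of brp, with an intronic summit, and CG3376, with an intergenic one, are not shown.
PAN3 (intron beside coding sequence, TATCGATA, chr3L:3083465-3083494): cgttatcgtcgTATCGATAactgtggaaaa
CG42709 (intron beside coding sequence, TATCGATA, chr3L:12794690-12794719): agttatcgctcTATCGATAgttggcgcaac
tio (3' UTR, TGACGTCA, chr2L:22024481-22024510): cccttcgtcagTGACGTCAcggcgatgatg
CG2104 (3' UTR, TGACGTCA, chr3R:5691172-5691201): tggtggcccatTGACGTCAcaacgccaggg
Both matches of TGACGTCA lay in 3' UTRs, with all 30 bases exonic. The PAN3 region had fold enrichments of 5.64 and 6.78 in the male and female fru+ lists and of 6.72 and 7.59 in the male and female fru- lists, and that of CG2104 had 5.38 and 5.11 in the male and female fru+ lists, and 4.23 and 3.79 in the male and female fru- lists. A match is a description of the sequence and was not tested for binding.

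A few regions contain sequence that is not unique. Matches elsewhere in the genome of at least 150 bp and 90% identity were found for 9 of the 354 regions, at the hosts Scp1 (88 matches), pan (21), Hcf (14), Maf1 (11), CG17528 (6), Octbeta3R (3), ATP8A, CG31211 and CG3281 (1 each). The matched part covered at most 47.6% of a region. Values at these 9 are uncertain to the extent that reads were placed among copies.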

How the data were processed

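ATAC-seq libraries of 8 samples in 4 groups were represented by 4 peak lists, 1 per group. By the methods, the authors trimmed reads with cutadapt, mapped them with Bowtie2 (dm6), marked duplicates in Picard and filtered them with SAMtools on mapping quality, and called peaks with MACS2 at an FDR of 0.001, versions not given in the sources used here. No correction of read positions for the transposase offset is mentioned. The series text says that both replicates were pooled, but the peaks of the male lists are named for replicate 1 and those of the female lists for replicate 2. The authors deposited, per peak, an integer score, fold enrichment (a ratio of the summit to local background), and p-value and q-value as -log10. The score was not used. The lowest -log10 q was 3.07.

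Peaks were joined and annotated with Ensembl release 115 (BDGP 6.54, dm6 coordinates) in python 3.11.15. Sequences came from the RefSeq dm6 genome. Copies were searched with blastn 2.17.0. Width was bases covered by a list's peaks. Fold and q were those of the highest peak, and the summit that of the peak of highest -log10 q. Read depth was not analysed here. Scripts were tested on simulated data. Genes were named by rule: the 5 strongest regions per class, the 10 hosts with most, the 5 widest and 3 narrowest, the 3 largest and smallest width ratios per pair, the 3 nearest to the start site limit on each side, and gene list members with 2 or more regions. Regions and lists were chosen with earlier results of these data known. Alternatives comprised a stricter q, other overlap, promoter and exon limits, non-coding exons, exonic summits, leaving out each list, another class order, centring, 2-fold, span and a window of 100 bp to either side.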

Additional observations from a re-analysis of the deposited data

Results flagged for a closer look

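In 8 of 354 exonic regions (2.26%, against 1.16% of all shared autosomal regions) the width ratio of fru+ over fru- was past 1.5-fold in opposite directions in males and females. With 1 list per group, the difference between the sexes was not tested. The ratio was above 1 in males and below 1 in females for bru1 (3.69 in males, 0.34 in females), MCU (3.75 and 0.50) and CG45263 (1.56 and 0.38). It was below 1 in males and above 1 in females for CG42700 (0.36 and 1.89), Fife, a presynaptic scaffold gene (0.61 and 1.58), olf413 (0.58 and 1.88), CG42342 (0.30 and 1.51) and trv (0.48 and 1.91). Fife aside, their strengths ran from 0.433 in CG42342 to 26.1 in MCU. Ratios of fold enrichment in males and females were 1.13 and 0.89 for bru1, and 1.10 and 1.01 for MCU. They were 0.65 and 1.20 for CG42342, and 0.71 and 1.03 for trv. No share of intronic regions was set beside the 2.26%.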

How the results depend on the processing

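No paired analysis was possible because each group had 1 list and the labels' replicate numbers appear in no separate list. Of 260 values recomputed under alternatives, 229 stayed within their counting interval (counts within 1.5 times) and 31 moved. None of those from leaving out a list moved, with 354 to 390 regions and 321 to 351 hosts. Requiring an exonic summit in all 4 lists left 156 regions and 145 hosts, with 47.4% coding and 42.3% 3' UTR, median widths of 533 bp in male fru+, 498 bp in female fru+, 541.5 bp in male fru- and 505.5 bp in female fru-, and 0% higher in fold enrichment in female fru+ over female fru- and in male fru- over female fru-. The last share was also 0% at a -log10 q of at least 5 and at 50 bp of exon. With start sites within 500 bp left out, 6.96% were 5' UTR. Counting exons of non-coding genes gave 46.8% coding and 28.7% 3' UTR. The fixed class order gave 18.1% 5' UTR, 37.6% coding and 44.4% 3' UTR. Centring on all shared regions gave 8.19% higher in fold enrichment for male fru+ over male fru-, with no centred share of other regions beside it. At 2-fold, the shares wider and narrower were 4.24% and 3.39% for male fru+ over male fru-, 5.37% and 2.82% for male fru+ over female fru+, 0.565% and 3.39% for female fru+ over female fru-, and 1.13% and 1.69% for male fru- over female fru-, so the order of wider and narrower turned in the first and last pair. Those turns rest on few regions and have no 2-fold share of all shared regions beside them. A window of 100 bp to either side gave 3.39% with GAGAGAGA, 0% with TGACGTCA, 5.08% with CACGTG and 3.95% with TAATTA. These lists give no read counts, so a region's width cannot be set against its depth.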
